A study of Mus musculus with 12 samples.

Results

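Undifferentiated spermatogonia (Aundiff) that were taken from PRC1cKO mice under Win18446 were compared with differentiating spermatogonia (Adiff) of untreated WT mice. These 2 groups held 4 of the 12 RNA-seq libraries of the series, 2 in each group. They were chosen by their labels and not by measured values. The comparison asks which features of the normal differentiating state are present, and which are missing, in cells that lack PRC1 while the synthesis of retinoic acid is blocked.

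The Win18446 PRC1cKO mice were *Ring1*-/-; *Rnf2* F/-; *Ddx4*-Cre, of a mixed C57BL/6 X FVB/NJ strain, where *Ddx4*-Cre deletes the floxed *Rnf2* allele in germ cells only. From the age of 1 month, males received daily subcutaneous injections of Win18446 (40 µg/µl in 50 µl DMSO) for about 30 days, and cells were collected 24 h after the last injection. Their Aundiff were sorted as E-Cadherin+, CD9high and KIT- cells. The WT Adiff libraries came from adult C57BL/6 males without treatment, sorted as E-Cadherin+, CD9medium and KIT+ cells. Genotype, *Ring1* allele, drug, strain and sorted fraction therefore differ together between the 2 groups, and their parts in any difference cannot be told apart. Each library was made from pooled cells of a biological replicate with the TruSeq stranded kit for polyadenylated mRNA. Values of 2 further groups are set beside the comparison: untreated WT Aundiff (2 libraries), and Aundiff of littermate PRC1ctrl mice (*Ring1*-/-; *Rnf2* F/+; *Ddx4*-Cre) that received the same Win18446 course (2 libraries). PRC1ctrl mice thus lack *Ring1* as well.

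Polycomb repressive complex 1 (PRC1) places a single ubiquitin on histone H2A through its RING1 or RNF2 subunit and holds developmental genes silent. In the testis, Aundiff contain the stem cells, which depend on GDNF from Sertoli cells acting on the receptor pair RET and GFRA1. Retinoic acid, made by ALDH1A enzymes, moves Aundiff to the KIT+ differentiating state and induces *Stra8*, the gatekeeper of meiosis. Win18446 inhibits ALDH1A2 and holds spermatogonia in the undifferentiated state.

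The promoters of 5 genes on which the comparison turns are shown first, since retinoic acid receptors bind repeats of a half-site of 6 bases. The sequences are from RefSeq (GRCm38.p6), 250 bases before to 50 bases after the annotated start, 5′ to 3′ on the strand of the gene. Capitals mark each match, on either strand, to the half-site AGGTCA, or to the variant AGTTCA, or to the variant GGGTCA, or to the variant GGTTCA. *Stra8* (chr6:34920698-34920997, plus strand), *Rarb* (chr14:16575427-16575726, minus strand) and *Cyp26a1* (chr19:37697558-37697857, plus strand) are textbook targets of retinoic acid:
Stra8: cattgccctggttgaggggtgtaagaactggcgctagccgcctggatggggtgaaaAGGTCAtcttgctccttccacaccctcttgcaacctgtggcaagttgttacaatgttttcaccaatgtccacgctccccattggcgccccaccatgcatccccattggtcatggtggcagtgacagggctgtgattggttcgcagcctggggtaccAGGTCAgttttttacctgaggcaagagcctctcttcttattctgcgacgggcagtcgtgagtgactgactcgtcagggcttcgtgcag
Rarb: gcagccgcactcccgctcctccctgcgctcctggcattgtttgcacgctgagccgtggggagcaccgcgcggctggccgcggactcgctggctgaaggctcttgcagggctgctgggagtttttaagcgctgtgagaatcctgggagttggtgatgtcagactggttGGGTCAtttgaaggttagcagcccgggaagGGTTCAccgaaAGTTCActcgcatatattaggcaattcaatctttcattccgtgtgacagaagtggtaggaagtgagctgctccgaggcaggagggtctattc
Cyp26a1: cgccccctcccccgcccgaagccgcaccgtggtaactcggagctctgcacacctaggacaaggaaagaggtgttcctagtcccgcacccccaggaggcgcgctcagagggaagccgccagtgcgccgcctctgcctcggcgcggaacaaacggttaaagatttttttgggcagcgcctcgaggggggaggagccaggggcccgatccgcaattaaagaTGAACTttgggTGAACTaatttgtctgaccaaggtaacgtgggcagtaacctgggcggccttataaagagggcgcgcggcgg
*Kit* (chr5:75574737-75575036, plus strand) and *Tbx1* (chr16:18588850-18589149, minus strand) mark the differentiating state:
Kit: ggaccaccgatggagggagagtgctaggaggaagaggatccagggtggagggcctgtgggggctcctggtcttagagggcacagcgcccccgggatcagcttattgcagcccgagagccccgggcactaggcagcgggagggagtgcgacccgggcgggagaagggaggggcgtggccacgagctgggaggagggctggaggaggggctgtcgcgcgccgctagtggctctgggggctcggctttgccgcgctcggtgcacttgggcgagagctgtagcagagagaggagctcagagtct
Tbx1: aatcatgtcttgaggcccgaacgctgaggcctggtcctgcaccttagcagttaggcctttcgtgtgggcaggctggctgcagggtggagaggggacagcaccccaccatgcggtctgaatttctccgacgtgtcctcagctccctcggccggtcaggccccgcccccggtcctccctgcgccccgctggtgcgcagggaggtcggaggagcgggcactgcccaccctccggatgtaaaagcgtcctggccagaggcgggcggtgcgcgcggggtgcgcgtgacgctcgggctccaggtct

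The *Stra8* window held 2 matches, 150 bases apart, and the *Rarb* window held 3. In *Rarb*, GGTTCA and AGTTCA were 5 bases apart, and in *Cyp26a1* a pair of AGTTCA on the opposite strand was also 5 bases apart. No match was found in either of the 2 windows listed for *Kit* or in either of the 2 listed for *Tbx1*. Of all 32851 windows of this length, 43.7% held at least 1 match and 13.1% held at least 2, so matches to these letters are common. A match describes the sequence and does not show a bound site.

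The targeted genes were examined first. *Ring1* TPM was 0.03 and 0.25 in the Win PRC1cKO libraries, against 14.7 and 19.9 in WT Adiff. It was likewise near 0 in Win PRC1ctrl (0.04 and 0.14), and both genotypes carry the *Ring1*-/- label. *Rnf2* TPM was 86.2 and 93.1 in Win PRC1cKO and 77.5 and 53.8 in WT Adiff. It was thus not lower in the libraries labelled PRC1cKO (difference 0.46 ± 0.19 SE on the log2 scale, adjusted p = 0.083, limma). In Win PRC1ctrl *Rnf2* was at 78.1 and 67.2 TPM, and its difference between the genotypes (0.30 ± 0.12) was not called. TPM over the whole gene does not tell a floxed transcript from a deleted one, and the genotype is used here as labelled. *Ddx4*, a germ cell helicase, was at 224 and 235 TPM in Win PRC1cKO and 216 and 171 TPM in WT Adiff.

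A TPM value is relative to the other transcripts of its library, and neither the depth nor the counting error behind it can be known from the table. In these 4 libraries, 14796 to 15208 genes reached a TPM of 1, and the 50 highest genes held 19.8% of the TPM in each WT Adiff library and 25.4% to 28.7% in Win PRC1cKO. Differences below are means of log2(TPM + 1) in Win PRC1cKO minus those in WT Adiff, which understates the change of genes near 1 TPM, and ± is the standard error of that difference with 2 libraries per group. A gene was called at a Benjamini-Hochberg adjusted p under 0.05 (limma, two-sided) with a difference above 1 in size.

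Of 15865 genes tested, 2181 (13.7%) were higher and 1729 (10.9%) lower in Win PRC1cKO, and 11955 were not called. Among the 13824 protein-coding genes tested, 1927 were higher and 1394 lower. The median difference over all genes tested was -0.08. Fewer genes were called when either Win PRC1cKO library was left out. Such a fit measures spread between libraries only in WT Adiff, so a call can be lost while its difference is kept. Counts for the gene lists below are to be read against 13.7% and 10.9%.

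For orientation, 2 other comparisons are quoted gene by gene, each of which shares libraries with the first. From WT Aundiff to WT Adiff, 1724 of 15470 genes tested (11.1%) were higher and 1430 (9.24%) lower, and with median-of-ratios scaling these were 1165 and 1748. From Win PRC1ctrl to Win PRC1cKO, 210 of 16521 (1.27%) were higher and 1807 (10.9%) lower. With median-of-ratios scaling the latter were 373 and 1246, and with quantile normalization 587 and 879. The median over all genes tested was 0.15 in the first and -0.19 in the second of these, and median-of-ratios scaling moved them to -0.00 and 0.03.

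Markers of the differentiating state were partly present in Win PRC1cKO. Of 13 genes of differentiating spermatogonia, 9 were lower than in WT Adiff, none was higher, and the median difference was -1.52. All 13 were tested, *Kit* among the 9 although it was a gate marker. In WT, 10 of the 13 were higher in Adiff than in Aundiff, beside 11.1% of all genes tested. In Win PRC1cKO, 4 of the 13 (*Kit*, *Tbx1*, *Esx1* and *Dmrtb1*) were higher than in Win PRC1ctrl, beside 1.27% of all genes tested.

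*Kit* (chr5:75574916-75656722) encodes the stem cell factor receptor that mediates the survival and division of Adiff. Its TPM was 20.35 and 21.96 in Win PRC1cKO, 247 and 245 in WT Adiff, 6.48 and 8.15 in Win PRC1ctrl, and 6.38 and 6.96 in WT Aundiff. Its level in Win PRC1cKO was thus above both other Aundiff groups, without overlap, and far below WT Adiff. Because KIT was used to sort the fractions, the difference from WT Adiff (-3.48) is a description only. Against Win PRC1ctrl, sorted by the same gate, the difference was 1.42 ± 0.16 (adjusted p = 0.0026).

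*Tbx1* (chr16:18580979-18590671), a T-box transcription factor of pharyngeal and cardiac development, was at 15.6 and 16.5 TPM in Win PRC1cKO, 85.0 and 130 in WT Adiff, 1.52 and 2.72 in Win PRC1ctrl, and 1.66 and 1.34 in WT Aundiff. It was lower than in WT Adiff by a difference of -2.64 ± 0.21 (adjusted p = 0.00039) and higher than in Win PRC1ctrl by 2.48 ± 0.22 (adjusted p = 0.0018). On the log2 scale its level lay about midway, at 48% of the distance from Win PRC1ctrl to WT Adiff, while *Kit* lay at 29%. *Tcea3* (chr4:136247729-136274898), a transcription elongation factor, was at 4.39 and 3.58 TPM in Win PRC1cKO and 23.4 and 28.6 in WT Adiff (difference -2.44 ± 0.20, adjusted p = 0.00039). In Win PRC1ctrl it was at 0.95 and 2.23 TPM, and its difference between the genotypes (0.99) did not pass the call. It did pass with median-of-ratios scaling (1.15), with a pseudocount of 0.1 (1.38) and with quantile normalization (1.38). Without Win PRC1ctrl replicate 2 it was 1.35.

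*Stra8* (chr6:34920163-34939344) showed the opposite extreme. Its TPM was 7.91 and 7.90 in Win PRC1cKO against 675 and 581 in WT Adiff, a difference of -6.14 ± 0.14 (adjusted p = 2.1e-05). Win PRC1ctrl was at 10.7 and 12.4 TPM and untreated WT Aundiff at 66.2 and 53.2. Both groups under Win18446 were therefore below even WT Aundiff, and Win PRC1cKO was the lower of them, by a difference of -0.50 that was not called.

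*Esx1*, an X-linked homeobox gene, was among the genes near their Adiff level. Its TPM was 58.3 and 61.3 in Win PRC1cKO, 80.2 and 78.4 in WT Adiff, 19.6 and 25.5 in Win PRC1ctrl, and 9.90 and 13.01 in WT Aundiff. The difference from WT Adiff was -0.40 ± 0.13 (adjusted p = 0.038), under the size of a call, and Win PRC1cKO stood at 77% of the distance from Win PRC1ctrl. *Sohlh2*, a basic helix-loop-helix factor required for differentiation, was at 119 and 122 TPM against 169 and 167 in WT Adiff (difference -0.47, not called) and 80.86 and 82.99 in Win PRC1ctrl. *Dmrt1* (difference -0.39) was not called either. *Sohlh1* was at 361 and 397 TPM against 200 and 235, a difference of 0.80 that was not called but was called higher with quantile normalization (1.06), and it did not differ between WT Aundiff and WT Adiff by a call.

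*Dmrtb1*, which controls the passage from spermatogonia to meiosis, was at 11.8 and 7.65 TPM against 147 and 182 in WT Adiff (-3.97 ± 0.22, adjusted p = 0.0002). The cytosolic retinoic acid binding protein *Crabp1* was at 228 and 273 TPM against 679 and 795 (-1.55), and *Rhox13* at 36.2 and 30.5 against 91.9 and 98.2 (-1.49). All 3 were called lower and lay at 30% to 32% of the distance from Win PRC1ctrl to WT Adiff. *Dnmt3b*, a de novo DNA methyltransferase of differentiating cells, was at 51.7 and 56.8 TPM in Win PRC1cKO, overlapping with both other Aundiff groups (52.5 to 61.6), and at 151 and 163 in WT Adiff (-1.52 ± 0.13, adjusted p = 0.00045).

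**Figure D1:**
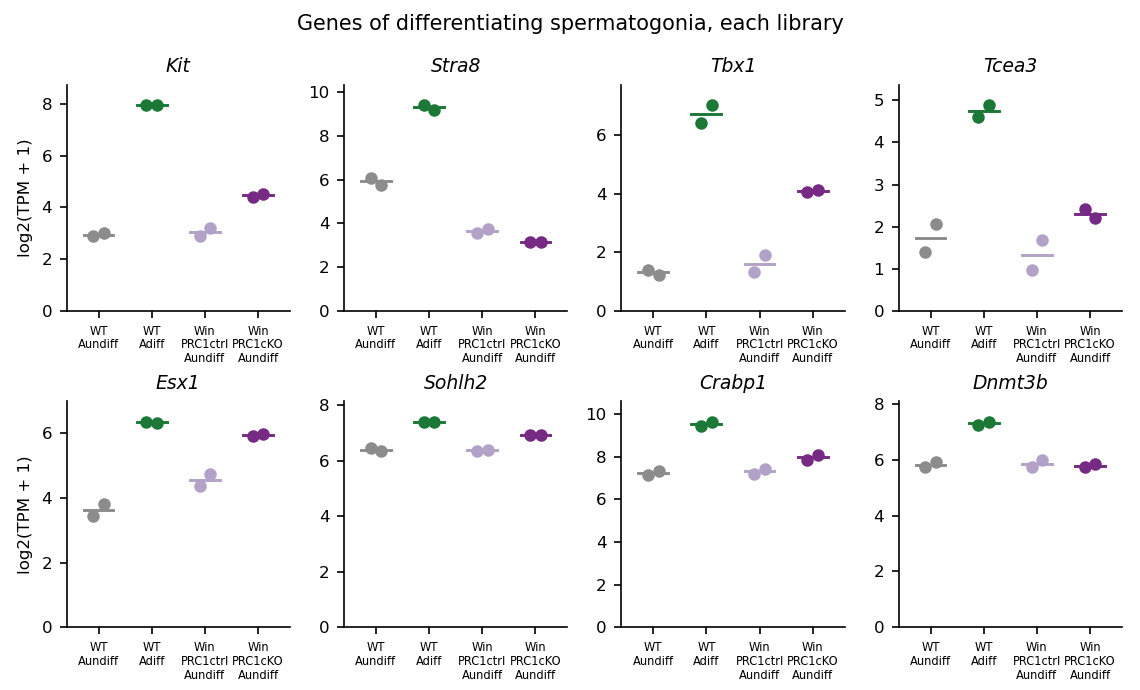
Level of 8 genes of differentiating spermatogonia as log2(TPM + 1) in each of the 8 TruSeq libraries (points, 2 per group) with the group mean (line). *Esx1* in Win PRC1cKO lies at 77% of the distance from Win PRC1ctrl to WT Adiff, *Kit*, *Tbx1*, *Tcea3*, *Sohlh2* and *Crabp1* lie between Win PRC1ctrl and WT Adiff, and *Stra8* and *Dnmt3b* lie at or below Win PRC1ctrl.

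The retinoic acid pathway was ordered by role. Of its 23 listed genes 20 were tested, 2 were higher and 7 lower in Win PRC1cKO, with a median difference of -0.56. Among enzymes of synthesis, *Aldh1a2*, the target of the drug, was at 42.1 and 45.9 TPM in Win PRC1cKO and 37.52 and 37.96 in WT Adiff (difference 0.21 ± 0.14, not called). *Aldh1a1* was higher, at 45.5 and 21.6 TPM against 2.82 and 2.50 (3.15 ± 0.34, adjusted p = 0.0012). Its level was also raised and uneven in Win PRC1ctrl, at 73.6 and 15.9 TPM. Sertoli cells express *Aldh1a1*, and Sertoli markers moved with it, as given below, although the sort for E-Cadherin and CD9 is meant to leave somatic cells out. Their part in its level was not tested.

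Among the binding proteins, *Fabp5*, which can carry retinoic acid to other nuclear receptors, was higher (31.3 and 29.7 TPM against 9.73 and 15.3, difference 1.25). *Fabp5* was also higher than in Win PRC1ctrl (1.14), and its call against WT Adiff was lost when either Win PRC1cKO library was left out (adjusted p = 0.0694 and 0.0574, limma) and without WT Adiff replicate 1 (difference 0.95). The receptors *Rara* (27.3 and 37.0 TPM against 26.1 and 35.5) and *Rarg* (53.2 and 59.4 against 39.4 and 44.0) were not called. *Rarb*, itself a target of retinoic acid, was at 0.32 and 0.27 TPM against 3.42 and 2.41 (-1.58 ± 0.23, adjusted p = 0.0022); 38% of its exonic bases overlap exons on the opposite strand.

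Among the enzymes that clear retinoic acid, *Cyp26a1* was at 0.24 and 0.25 TPM in Win PRC1cKO, 3.69 and 6.93 in WT Adiff, 0.08 and 0.26 in Win PRC1ctrl, and 2.13 and 2.92 in WT Aundiff (difference from WT Adiff -2.29 ± 0.29, adjusted p = 0.0015). *Cyp26b1* was at 4.42 and 3.81 TPM against 9.73 and 12.7 (-1.25), a call that was lost without either Win PRC1cKO library (adjusted p = 0.0518 and 0.0594, limma). *Rec8*, a meiotic cohesin induced by retinoic acid, was at 10.6 and 12.6 TPM against 25.9 and 29.0 (-1.18 ± 0.17). *Rarb* and *Cyp26a1* were at 0.32 TPM or less in all 4 libraries of the groups under Win18446. The 5 genes whose promoters are printed above were chosen with their values known, and nothing is read from the matches about their levels.

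Many genes of the undifferentiated state were higher in Win PRC1cKO than in WT Adiff. Of 27 listed genes 25 were tested, 15 were higher than in WT Adiff, the gate gene *Cdh1* (E-Cadherin) among them, 10 were not called and none was lower, with a median difference of 1.49. *Ret*, the GDNF co-receptor, was at 83.3 and 88.8 TPM against 5.73 and 5.60 (3.71 ± 0.15, adjusted p = 5.4e-05). The translational regulator *Nanos3* was at 120 and 133 TPM against 7.44 and 9.19 (3.78 ± 0.16), and the uridine phosphorylase *Upp1* at 248 and 267 against 19.6 and 17.1 (3.74 ± 0.14). For these 3 genes Win PRC1cKO was within 0.3 of Win PRC1ctrl on the log2 scale, and none differed from it by a call.

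*Gfra1*, the partner of RET in the GDNF receptor, was at 15.7 and 16.1 TPM in Win PRC1cKO, against 3.55 and 4.06 in WT Adiff (1.82 ± 0.19, adjusted p = 0.00078). It was at 14.7 in both Win PRC1ctrl libraries and at 70.5 and 68.1 TPM in WT Aundiff. *Etv5*, an ETS factor induced by GDNF, was at 12.6 and 14.8 TPM in Win PRC1cKO, 16.04 and 15.34 in Win PRC1ctrl, 57.3 and 58.7 in WT Aundiff and 2.62 and 2.77 in WT Adiff. For *Gfra1* and *Etv5* both groups under Win18446 lay between WT Adiff and WT Aundiff. *Id4*, an inhibitor of DNA binding that marks stem cells, was higher than in WT Adiff (8.51 and 7.18 TPM against 0.76 and 1.07, difference 2.21), as was the zinc finger repressor *Zbtb16* (99.1 and 129 against 32.5 and 39.1, difference 1.64).

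*Neurog3*, a transcription factor of progenitor spermatogonia, was at 17.8 and 20.8 TPM in Win PRC1cKO, 4.12 and 4.30 in WT Adiff, and 37.3 and 48.9 in Win PRC1ctrl. It was called higher than WT Adiff (1.96 ± 0.19) and lower than Win PRC1ctrl (-1.11 ± 0.17, adjusted p = 0.0049); 16% of its exonic bases overlap exons on the opposite strand. The call against Win PRC1ctrl was lost with median-of-ratios scaling (-0.87), with quantile normalization (-0.84), without Win PRC1ctrl replicate 2 (-0.92) and without Win PRC1cKO replicate 1 (adjusted p = 0.0560, limma). *Sall1* was at 8.90 and 11.3 TPM, against 5.20 and 7.05 in WT Adiff and 29.4 and 37.4 in Win PRC1ctrl. Its difference from WT Adiff (0.64) was not called. The difference of *Sall1* from Win PRC1ctrl was -1.63, the lowest among the 15 transcription factors of the list tested there. Its paralog *Sall4* was at 91.0 and 117 TPM and overlapped with WT Adiff (99.7 and 124).

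Of 9 genes of the GDNF, FGF and ERK response, 4 were higher (*Etv4*, *Etv5*, *Dusp6* and *Spry2*) and none was lower. *Dusp6*, a phosphatase that limits ERK, was at 12.3 and 12.8 TPM against 1.5 and 2.07 in WT Adiff (2.29 ± 0.21). Without Win PRC1cKO replicate 1, 3 of the 9 were called, and without replicate 2, 2 were. Of 12 genes of BMP signalling, 4 were higher (*Id3*, *Id4*, *Bmpr1b* and *Smad9*) and 1 was lower (*Smad6*). The calls of *Smad9* (adjusted p = 0.0704 and 0.0935, limma) and *Smad6* (0.0659 and 0.104) were lost when either Win PRC1cKO library was left out, and that of *Smad9* also with quantile normalization (0.81). *Id1* was not called, at 13.8 and 11.8 TPM against 8.91 and 10.6 in WT Adiff (0.36), and was higher than in Win PRC1ctrl, where it was at 5.52 and 5.45 TPM, a call that was lost without Win PRC1cKO replicate 1 (0.98, adjusted p = 0.0534, limma).

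Some genes of proliferation were lower in Win PRC1cKO than in WT Adiff. Of 32 DNA replication genes 14 were lower and none was higher (median difference -0.97), and of 25 mitosis genes 10 were lower and none was higher (median -0.88). The helicase subunit *Mcm2* was at 117 and 129 TPM against 357 and 412 (-1.63 ± 0.13, adjusted p = 0.00038), the DNA ligase *Lig1* at 60.5 and 72.0 against 263 and 227 (-1.87), and the origin subunit *Orc1* at 22.5 and 24.4 against 77.8 and 80.8 (-1.71). None of these 3 differed from Win PRC1ctrl by a call. With quantile normalization 9 of the 32 replication genes and 9 of the 25 mitosis genes were lower.

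The mitotic kinase *Plk1* was at 16.4 and 20.3 TPM in Win PRC1cKO and 84.1 and 89.2 in WT Adiff (-2.19 ± 0.16, adjusted p = 0.00032). The proliferation antigen *Mki67* was at 3.69 and 9.06 TPM against 39.2 and 29.5 (-2.35 ± 0.39), and here the 2 Win PRC1cKO libraries differed more than 2-fold. The kinetochore gene *Cenpf* was at 12.2 and 30.3 TPM against 52.1 and 45.5 and was not called (-1.29), with the same order of the 2 Win PRC1cKO libraries. It was called lower in the fit over the 8 TruSeq libraries and without Win PRC1cKO replicate 2 (-1.91), and was at -0.67 without replicate 1.

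Among 29 cyclins, kinases and their inhibitors, 3 were higher and 11 lower. *Ccne2*, a cyclin of the entry into S phase, was at 15.0 and 12.2 TPM against 82.0 and 59.6 (-2.29 ± 0.20, adjusted p = 0.00047), *Ccnd1* at 45.2 and 43.8 against 114 and 117 (-1.36), and *Ccna2* at 80.7 and 81.2 against 195 and 177 (-1.19). Of the 10 kinase inhibitors and RB family genes among them, 3 were higher, 1 was lower (*Cdkn2c*, -1.52) and 6 were not called, with a median of -0.46. The kinase inhibitor *Cdkn1b* (p27) was at 28.2 and 27.4 TPM against 0.36 and 1.3 (4.02 ± 0.28, adjusted p = 0.0003), *Cdkn1a* (p21) at 18.2 and 17.1 against 5.22 and 6.57 (1.44), and the retinoblastoma gene *Rb1* at 44.4 and 45.4 against 17.0 and 13.9 (1.49). *Cdkn1b* was also high in WT Aundiff (31.4 and 31.6 TPM), whereas *Cdkn1a* there (6.69 and 7.65 TPM) was near WT Adiff and below both groups under Win18446.

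**Figure D2:**
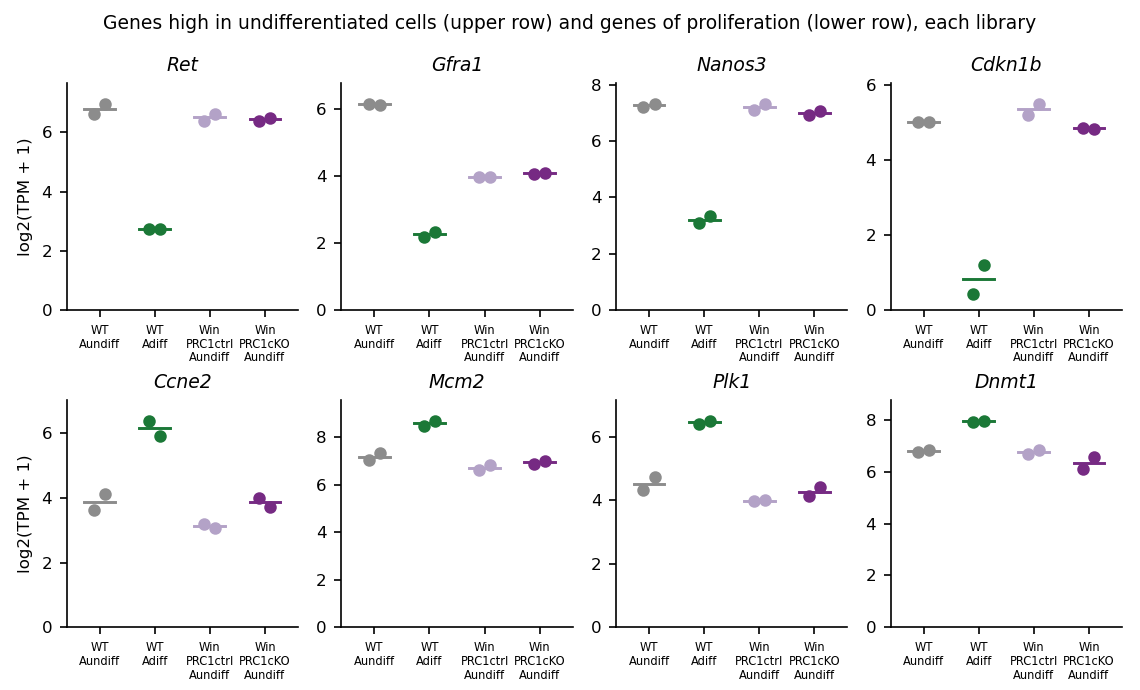
Level of 4 genes that are high in undifferentiated cells (upper row) and 4 genes of proliferation and DNA methylation (lower row) as log2(TPM + 1) in each library, with group means as lines. For all 8 genes the 2 Win PRC1cKO libraries lie nearer to Win PRC1ctrl than to WT Adiff, and for *Gfra1* both groups under Win18446 lie below WT Aundiff.

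Of 27 meiotic genes 4 were higher, a share near that of all genes tested (13.7%), and 8 were lower, with a median difference of -0.40. When Win PRC1cKO replicate 1 was left out, 1 was higher and 6 were lower. Besides *Stra8* and *Rec8*, the lower genes included *M1ap*, needed for meiosis I, at 33.9 and 40.9 TPM against 129 and 125 (-1.74 ± 0.15, adjusted p = 0.00041), and *Psmc3ip*, a partner of the DMC1 recombinase, at 14.4 and 15.3 against 53.1 and 45.3 (-1.66). The higher genes were *Rad21l*, a cohesin subunit (14.9 and 13.5 TPM against 5.55 and 3.52, difference 1.48), *Mnd1* (43.3 and 44.0 against 17.0 and 15.8, difference 1.36), *Tex12* and *Hormad1*. Without Win PRC1cKO replicate 1, the calls of *Rad21l*, *Tex12* and *Hormad1* were lost (adjusted p = 0.0600, 0.0591 and 0.124, limma), and that of *Hormad1* was also lost without Win PRC1cKO replicate 2, without WT Adiff replicate 2 and with no filter. *Mnd1* and *Psmc3ip* encode the 2 subunits of a single complex, and they moved in opposite directions, as they did between WT Aundiff and WT Adiff (-1.05 and 1.25). The synaptonemal complex gene *Sycp1* overlapped between the groups, at 31.9 and 24.7 TPM against 29.7 and 26.5.

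Of 22 genes of germline RNA proteins and the piRNA pathway, 6 were higher and none was lower. These were *Nanos2*, *Nanos3*, *Piwil4*, *Tdrd5*, *Lin28a* and *Asz1*. *Piwil4*, the nuclear piRNA protein, was at 23.2 and 25.4 TPM against 6.77 and 7.65 in WT Adiff (1.63 ± 0.17). *Nanos2* was at 5.63 and 4.35 TPM against 0 and 0.10, with 49% of its exonic bases overlapping exons on the opposite strand. The differences of *Lin28a* (1.00) and *Asz1* (1.01) were at the limit of a call. The call of *Lin28a* was lost without Win PRC1cKO replicate 2 (0.93), and that of *Asz1* without WT Adiff replicate 2 (0.96) and without Win PRC1cKO replicate 1 (0.97). *Dazl*, *Ddx4* and *Piwil2* were within 0.3 of WT Adiff.

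Some DNA methylation genes were expressed at lower levels than in WT Adiff. The maintenance methyltransferase *Dnmt1* was at 68.2 and 93.3 TPM in Win PRC1cKO, 242 and 247 in WT Adiff, and 102 and 112 in Win PRC1ctrl (difference from WT Adiff -1.60 ± 0.17, adjusted p = 0.00086). Its cofactor *Uhrf1* was at 67.6 and 77.2 TPM against 231 and 239 (-1.69). *Dnmt3l*, a cofactor without enzyme activity that acts in prospermatogonia, was higher, at 16.4 and 20.4 TPM against 1.96 and 1.42 (2.85 ± 0.22). Of the 6 genes of this group that were tested, 1 was higher and 3 lower.

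Of 31 genes of PRC1, PRC2 and the H3K27 demethylases, 2 were higher and 6 lower, *Ring1* among them. Among the lower genes were *Yaf2* (-1.43), *Pcgf2* (-1.38), *Kdm6b* (-1.27) and *Rybp* (-1.26). Of 10 chromobox and polyhomeotic genes 1 was lower, with differences down to -1.83, and 2 were called lower than in Win PRC1ctrl. *Pcgf6*, which directs a PRC1 variant to germline genes, was higher, at 33.2 and 34.5 TPM against 7.33 and 9.78 (1.88 ± 0.19), as was the PRC2 partner *Mtf2* (127 and 137 against 66.0 and 53.9, difference 1.13). None of these 6 named genes differed from Win PRC1ctrl by a call, except that *Kdm6b* was called lower without Win PRC1cKO replicate 2 (-1.21). Its call against WT Adiff was lost without Win PRC1cKO replicate 1 (-0.96). The core PRC2 genes *Ezh2*, *Eed* and *Suz12* were not called, with differences of -0.44, -0.62 and -0.91, although *Suz12* was called lower without WT Adiff replicate 2 (-1.08).

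PRC1 is known to hold homeobox and other developmental transcription factors silent. Of 39 *Hox* genes 21 were tested, 13 were called higher and none lower. Of 81 other developmental factors 43 were tested, 17 were called higher and 1 lower. Of the 9 tested Sertoli markers, 6 were higher in the same comparison, with a summed level of 202 to 296 TPM against 42 to 44. Their part in these lists was not tested. A gene listed near 0 in WT Adiff entered the test through the Win PRC1cKO libraries, so these counts cannot be read as shares of all members, and the filter partly sets their direction. With no filter on low values 12 of 38 *Hox* genes were called higher (median difference 0.54), as were 16 of the 81 other factors (median 0.32). Only 4 *Hox* genes reached a TPM of 5 in both Win PRC1cKO libraries. When genes had to average 5 TPM or more, the 1 *Hox* gene tested was called higher. Of the 10 developmental factors then tested, 5 were called higher and 1 lower. Without Win PRC1cKO replicate 1, 8 *Hox* genes were called. Against Win PRC1ctrl, 2 of 22 tested *Hox* genes were higher and 2 lower. Of 42 other factors tested there, 1 was higher and 2 were lower, beside 1.27% and 10.9% of all genes. From WT Aundiff to WT Adiff, 1 of 17 tested *Hox* genes was higher and 6 were lower. Of 37 other factors tested there, 7 were higher and 17 lower, beside 11.1% and 9.24% of all genes.

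A few genes stood above all 3 other groups. *Hoxa10* was at 3.84 and 4.06 TPM in Win PRC1cKO, 0 and 0.18 in WT Adiff, 0.63 and 1.26 in Win PRC1ctrl and 0.74 and 1.69 in WT Aundiff (difference from WT Adiff 2.19 ± 0.22, adjusted p = 0.00069). Its neighbour *Hoxa9* was at 2.33 and 3.12 TPM, with 0 and 0.05 in WT Adiff and 0.42 and 0.43 in Win PRC1ctrl. Both were higher than Win PRC1ctrl as well (1.37 and 1.38, adjusted p = 0.0054 and 0.0038). *Pax8*, a paired box factor of thyroid and kidney, was at 10.05 and 10.98 TPM, with 1.59 and 2.28 in WT Adiff and 1.06 and 2.95 in Win PRC1ctrl (1.98 ± 0.22 and 2.01 ± 0.31). *Hoxa7* was at 7.14 and 7.61 TPM against 0.69 and 0.74 in WT Adiff (2.29 ± 0.21) and 3.02 and 3.51 in Win PRC1ctrl. The difference from Win PRC1ctrl (0.98) was just short of a call. It passed with median-of-ratios scaling (1.17), quantile normalization (1.25) and a pseudocount of 0.1 (1.15). Without Win PRC1ctrl replicate 2 it was 1.06. Without Win PRC1cKO replicate 1, the calls of *Hoxa10* and *Pax8* against Win PRC1ctrl were lost (adjusted p = 0.0556 for both, limma).

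Other members were also high in the other Aundiff groups. *Foxf1*, a forkhead factor of mesenchyme, was at 194 and 196 TPM in Win PRC1cKO, 6.50 and 9.17 in WT Adiff (4.49 ± 0.18, adjusted p = 5.4e-05), 224 and 269 in Win PRC1ctrl, and 141 and 166 in WT Aundiff. *Irx2* was at 11.5 and 13.6 TPM against 0.58 and 0.56 in WT Adiff (3.11) and was lower than in Win PRC1ctrl, where it was at 24.1 and 32.8 (-1.11). That call was lost with median-of-ratios scaling (-0.88), with quantile normalization (-0.81), without Win PRC1ctrl replicate 2 (-0.89) and without Win PRC1cKO replicate 1 (adjusted p = 0.0660, limma). *Hoxc4* (3.57 and 3.20 TPM against 0.38 and 0.35) and *Twist1* (13.7 and 11.9 against 1.89 and 3.11) were higher than WT Adiff and did not differ from Win PRC1ctrl by a call, except that *Hoxc4* was called lower with a pseudocount of 0.1 (-1.02) and without Win PRC1ctrl replicate 1 (-1.12). For 3 genes at low levels, *Hoxa3*, *Gata3* and *Tbx15*, the calls against WT Adiff were lost when either Win PRC1cKO library was left out. Over 11 alternatives they were lost in 7, 4 and 2. Their differences were 1.24, 2.09 and 1.23 without replicate 1, and 0.91, 1.82 and 1.22 without replicate 2. These lost calls therefore do not show a dependence of the differences on 1 library. The exception in direction was *Dlx1*, which was at 8.97 and 8.04 TPM in Win PRC1cKO and 24.6 and 29.6 in WT Adiff (-1.56 ± 0.18).

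**Figure D3:**
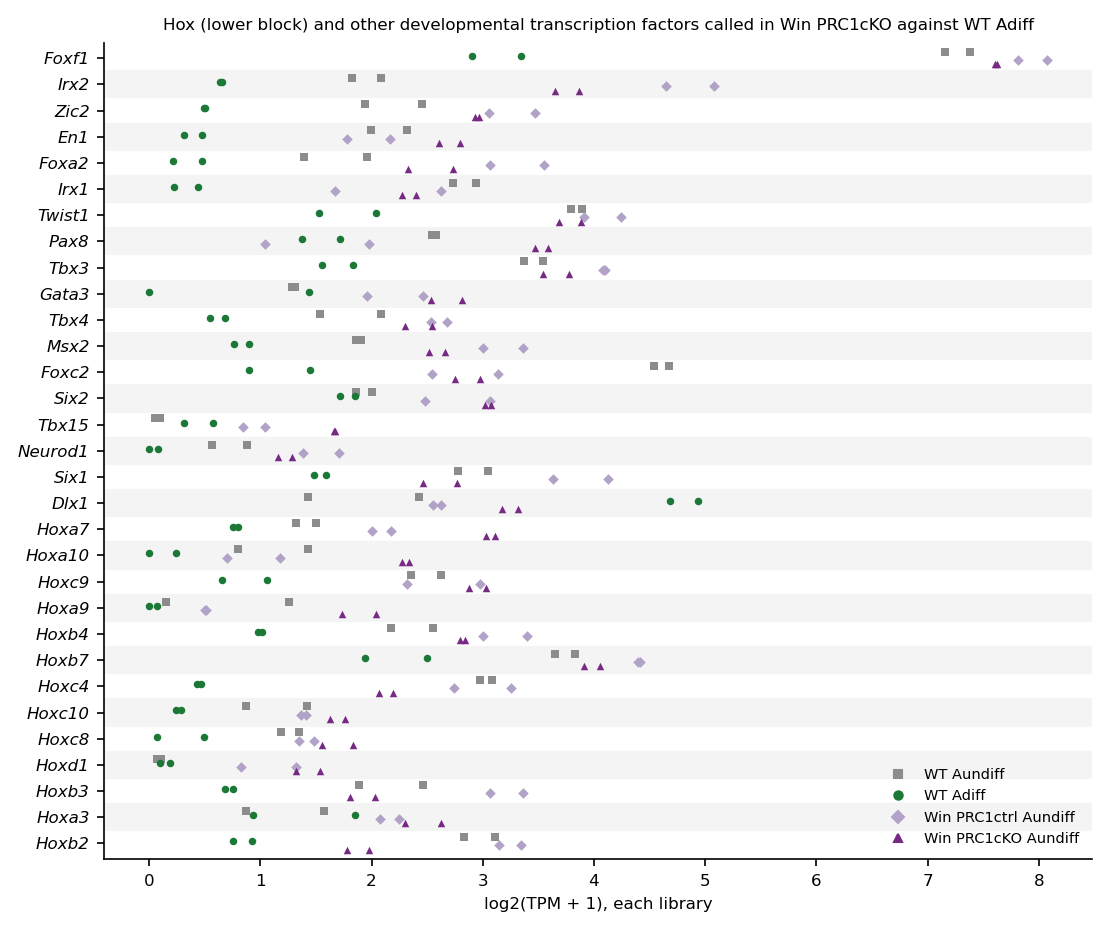
Level as log2(TPM + 1) in each library (2 points per group) of the 13 *Hox* genes and the 18 other developmental transcription factors called between Win PRC1cKO and WT Adiff, ordered by their difference within each block. The triangles of Win PRC1cKO lie to the right of all other symbols for *Hoxa3*, *Hoxa7*, *Hoxa9*, *Hoxa10*, *Hoxc8*, *Hoxc10*, *Pax8*, *Tbx15*, *Gata3* and *En1*, and not for the other genes.

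The *Rhox* genes, an X-linked homeobox cluster active in the gonad, were tested for 23 of 32 members, of which 9 were higher and 1 (*Rhox13*) was lower than in WT Adiff. The 9 include *Rhox5* (2.17), which Sertoli cells express and which is also among the Sertoli markers below. As with *Hox*, some members near 0 in WT Adiff entered the test through the Win PRC1cKO libraries, so the filter partly sets the direction. With no filter on low values 7 of 31 were higher and 1 was lower (median difference 0.73, against 0.91 with the filter). With a pseudocount of 0.1, 7 of 23 were higher. *Rhox10* was at 107 and 108 TPM against 30.6 and 27.6 (1.85 ± 0.14, adjusted p = 0.00032), and *Rhox6* at 6.18 and 4.99 against 0.80 and 1.26 (1.70). Against Win PRC1ctrl, 11 of 23 were higher, beside 1.27% of all genes tested in that comparison. *Rhox2a* was at 48.5 and 50.4 TPM in Win PRC1cKO, 36.2 and 35.4 in WT Adiff and 14.6 and 13.2 in Win PRC1ctrl, so that it reached the Adiff level and was called only against Win PRC1ctrl (1.76 ± 0.13, adjusted p = 0.0016). The *Rhox2*, *Rhox3* and *Rhox4* genes are near-identical copies among which reads can be split, and their single values are uncertain.

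Of 20 glycolysis genes 6 were higher and 1 was lower. The lactate dehydrogenase subunits *Ldha* (84.4 and 83.3 TPM against 16.9 and 16.6, difference 2.26 ± 0.14) and *Ldhb* (74.2 and 56.2 against 12.2 and 12.2, difference 2.31) and the glucose transporter *Slc2a3* (47.7 and 55.8 against 6.86 and 8.45, difference 2.61) were higher, and the hexokinase *Hk2* was lower (-1.13). None of the 20 differed between Win PRC1cKO and Win PRC1ctrl by a call. Of 75 nuclear genes of oxidative phosphorylation 1 was higher and 1 lower, with a median of -0.31. Of 82 ribosomal protein genes 4 were higher (9 with median-of-ratios scaling) and 1 lower, with a median of 0.46. Counts in both lists changed when a WT Adiff library was left out. The medians were then -0.31 for oxidative phosphorylation and 0.45 to 0.48 for the ribosomal protein genes. The X-linked *Rps4x* stood out among the latter, at 466 and 453 TPM against 62.3 and 51.0 in WT Adiff (3.00 ± 0.14, adjusted p = 9.4e-05) and 462 and 442 in WT Aundiff.

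Among 18 tested genes of the p53 pathway and apoptosis, 5 were higher and 1 was lower, and 3 were higher when either Win PRC1cKO library was left out. *Pmaip1* (Noxa) was at 22.6 and 21.1 TPM against 3.22 and 3.47 (2.40 ± 0.18, adjusted p = 0.00034), and *Bcl2l11* (Bim) was lower, at 8.84 and 9.60 against 26.0 and 42.5 (-1.75). *Casp8*, the initiator caspase of death receptors, was at 6.36 and 6.18 TPM in Win PRC1cKO, above WT Adiff (2.05 and 2.18), Win PRC1ctrl (2.58 and 2.05) and WT Aundiff (1.1 and 1.77). Its call against WT Adiff (1.22) was lost without either Win PRC1cKO library (adjusted p = 0.0675 and 0.0595, limma). *Phlda3*, a p53 target, was at 22.7 and 24.4 TPM, between Win PRC1ctrl (9.88 and 9.60) and WT Adiff (37.6 and 47.9), and was called against Win PRC1ctrl only (1.19 ± 0.13).

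The 10 largest positive differences among protein-coding genes that were called, did not overlap between groups and had a TPM of at least 5 in both Win PRC1cKO libraries were those of *Enc1* (4.72), *Ddit4* (4.6), *Foxf1*, *Sntg2*, *Rin2*, *Csta2*, *Cdkn1b*, *Adgrg1*, *Nanos3* and *Zfp703* (3.76). *Enc1*, an actin-binding protein of neurons, was at 105 TPM in both Win PRC1cKO libraries against 2.87 and 3.19 in WT Adiff, and *Ddit4*, an inhibitor of mTORC1, at 163 and 158 against 5.87 and 5.47. All but *Csta2* of these 10 were within 1 of Win PRC1ctrl on the log2 scale. *Csta2* (stefin A2), an inhibitor of cysteine proteases, was at 25.2 and 19.2 TPM in Win PRC1cKO, 0 and 0.99 in WT Adiff, 6.61 and 4.63 in Win PRC1ctrl and 5.69 and 7.89 in WT Aundiff.

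Apart from *Stra8*, the 10 largest negative differences were mostly those of genes expressed in spermatids. They were *Prm2* (-7.42), *Prm1* (-7.25), *Tnp2* (-6.75), *Oaz3*, *Smcp*, *Gsg1*, *Gapdhs*, *Gm9999* and *4933411K16Rik* (-4.37). The protamine *Prm2*, which packs sperm DNA, was listed at 0 in both Win PRC1cKO libraries, at 148 and 196 TPM in WT Adiff, at 35.4 and 29.9 in Win PRC1ctrl and at 222 and 236 in WT Aundiff. Of the 9 spermatid markers tested, 8 were lower and 1 (*Spaca1*) was higher, with a median of -4.20, and the 10 markers summed to 24 to 26 TPM in Win PRC1cKO, 586 to 775 in WT Adiff, 139 to 153 in Win PRC1ctrl and 864 to 934 in WT Aundiff. In bulk libraries, fewer cells of a type and less RNA per cell cannot be told apart. Spermatogonia precede spermatids, and a part of these transcripts from other cells or free RNA in the WT libraries was not tested.

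Markers of other cell types were examined in full. Of the 9 tested Sertoli markers 6 were higher in Win PRC1cKO and none was lower, with a median difference of 2.17. With no filter on low values 6 of 12 markers were higher and none was lower, with a median of 1.27. Their sum was 202 to 296 TPM in Win PRC1cKO and 195 to 290 in Win PRC1ctrl, against 42 to 44 in WT Adiff and 113 to 120 in WT Aundiff. *Clu* was at 138 and 77.1 TPM against 18.8 and 19.6, and *Aard* at 46.7 and 22.1 against 5.03 and 5.71. Among the defining genes, *Sox9* was at 1.78 and 1.49 TPM and *Amh* at 1.91 and 0.88 in Win PRC1cKO. With a pseudocount of 0.1, all 9 tested Sertoli markers were called higher than in WT Adiff, and the difference of *Sox9* was 1.31. Genes of Sertoli cells that are also named above (*Rhox5*, *Aldh1a1*) moved with this list, and the part of Sertoli RNA in them was not tested.

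Of the 5 tested Leydig markers none was called, with 1 (*Hsd3b6*) at an unadjusted p under 0.05 in limma. *Hsd3b6* was called higher without trend or robust moderation (adjusted p = 0.0496, limma) and without Win PRC1cKO replicate 2 (2.65, adjusted p = 0.0369, limma). The sum of the Leydig markers was 24 to 85 TPM in Win PRC1cKO, 11 to 43 in WT Adiff and 24 to 45 in WT Aundiff. In Win PRC1ctrl it was 435 and 87 TPM, so that replicate 1 stood apart and replicate 2 was close to the higher Win PRC1cKO library. Of 6 peritubular and endothelial markers 2 were higher, and their sum was 29 to 38 TPM against 13 to 18. Neither call held when either Win PRC1cKO library was left out, or in the fit over the 8 TruSeq libraries. Of 7 tested markers of macrophages and lymphocytes 3 were higher, and their sum was 93 to 142 TPM against 40 to 44. None of the 7 was called without Win PRC1cKO replicate 1, *Cd74* included (adjusted p = 0.0558, limma), and without replicate 2, 1 was. *Cd74* held most of the latter sum, at 115 and 70.4 TPM in Win PRC1cKO, 36.3 and 24.3 in WT Adiff and 19.6 and 15.7 in Win PRC1ctrl. Of 8 spermatocyte markers 4 were lower and none was higher, among them the RNA-binding protein *Ybx2*, at 3.46 and 5.66 TPM against 44.5 and 47.8 (-3.11 ± 0.23).

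Cell dissociation is known to induce immediate-early and heat shock genes. Of 11 such genes 8 were higher, 3 were not called and none was lower, with a median of 2.13. When genes had to average 5 TPM or more, 5 of 8 were higher. *Egr1* was at 58.1 and 66.0 TPM against 3.17 and 5.08 (3.64 ± 0.22, adjusted p = 0.00025) and was at a like level in WT Aundiff (77.9 and 88.1). *Jun* was at 16.02 and 10.98 TPM against 1.95 and 2.62 (2.13 ± 0.25), and at 1.91 and 4.21 in WT Aundiff. *Fos* was at 51.5 and 27.9 TPM against 3.02 and 5.57. In Win PRC1cKO, *Fos* and *Jun* were higher in replicate 1, as was the Sertoli sum, whereas *Egr1* was higher in replicate 2. The part of sample handling in these genes was not tested.

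**Figure D4:**
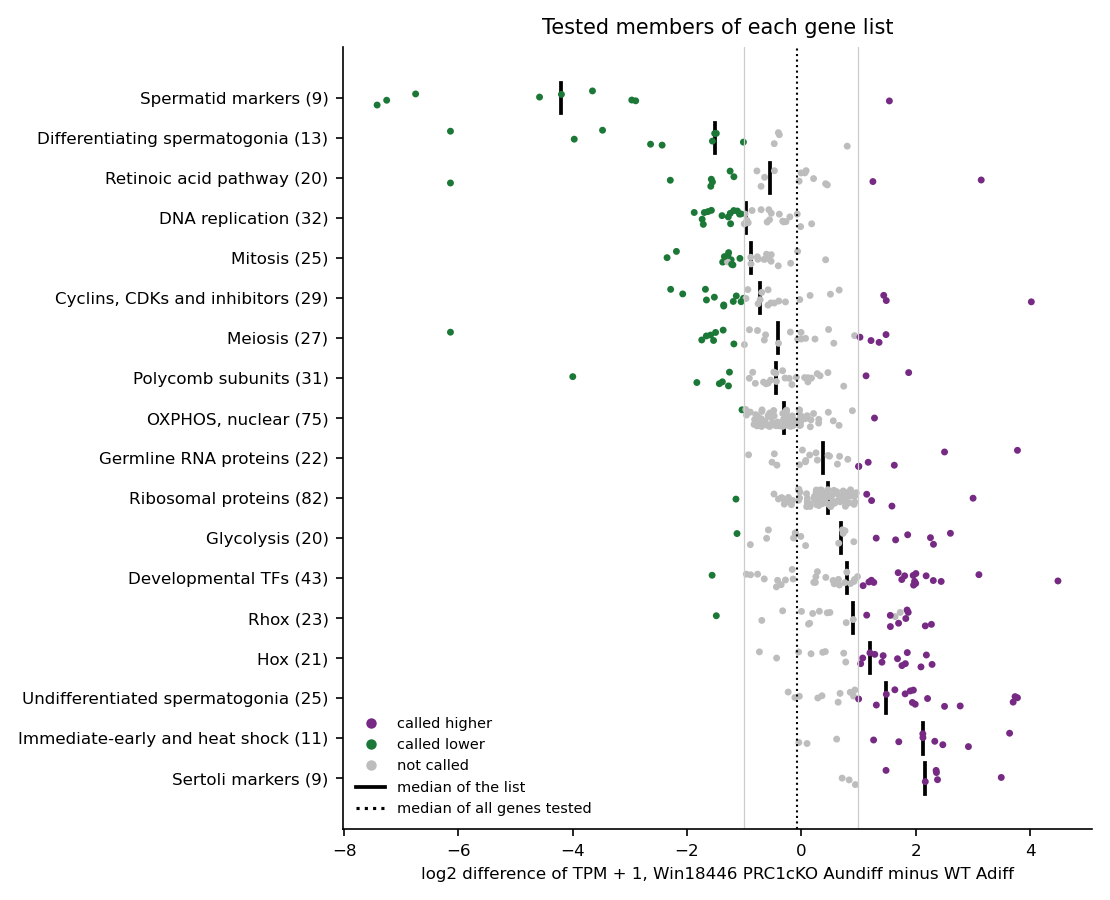
Difference in log2(TPM + 1), Win PRC1cKO minus WT Adiff, for each tested member (points) of 18 gene lists, with the number tested in parentheses. Black bars are list medians, which run from -4.20 for spermatid markers to 2.17 for Sertoli markers, and the dotted line is the median of all genes tested, -0.08.

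**Figure D5:**
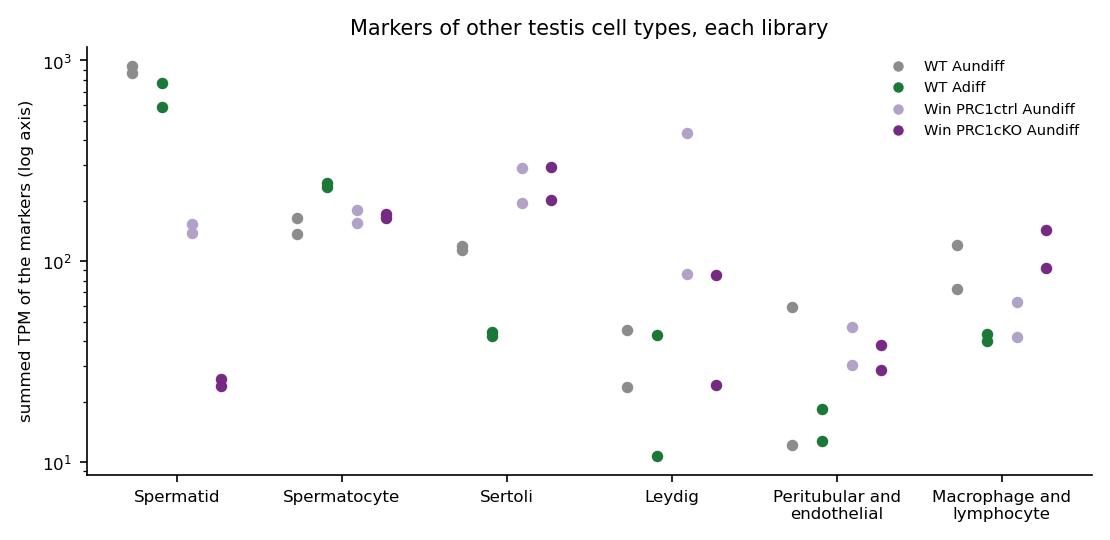
Summed TPM of the markers of 6 other cell types in each library, on a log axis, 2 points per group. WT Adiff has the lowest Sertoli sums, 42 and 44 TPM, and Win PRC1cKO the lowest spermatid sums, 24 and 26 TPM.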

How the data were processed

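RNA-seq libraries of sorted mouse spermatogonia were compared as deposited. Per the labels and the study's methods, the authors trimmed reads with Trim Galore 0.6.6, aligned them to GRCm38 with HISAT2 2.2.1 and SAMtools 1.9, and computed the deposited TPM values with RSEM 1.3.3. The processing notes also name HTSeq 1.6.0 and DESeq2 1.28.1, whose counts were not used here. The table held 55385 genes, of which 55144 identifiers were found in the annotation and 27 names had been turned into dates. No reads or totals accompany TPM, so depth is unknown.

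From these values, log2(TPM + 1) was computed and genes that reached a TPM of 1 in 2 or more of the 4 libraries were tested with limma 3.58.1 in R 4.3.3 (trend and robust moderation, two-sided, Benjamini-Hochberg). A call required an adjusted p under 0.05 and a difference above 1 in size. The fit was tested on simulated data. With 2 libraries per group, the smallest exact two-sided permutation p is 0.333, so single values were not permuted. P-values measure the spread between 2 libraries of pooled cells. Alternatives were the pseudocount, filter, scaling, pooled fit, moderation, replicate block and leaving out each library. Named genes were the targeted genes, the 10 largest called differences in each direction among protein-coding genes that did not overlap and had a TPM of at least 5 in the higher group, and members of the gene lists, called ones with large differences first. The members and lists were chosen with earlier results of these data known. The untreated PRC1ctrl and PRC1cKO libraries were made with Smart-Seq2 and were not compared with these. A few genes are not reported here by name.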

Additional observations from a re-analysis of the deposited data

Results flagged for a closer look

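The untreated PRC1ctrl and PRC1cKO Aundiff libraries, made with Smart-Seq2, were outside the comparisons above. They were looked at for the 4 markers, and for *Esx1*, *Dmrtb1*, *Crabp1*, *Cyp26a1* and *Rarb*, because they carry the same genotypes without the drug. *Kit* was at 10.7 and 14.9 TPM in the 2 PRC1cKO libraries and at 1.64 and 3.30 TPM in the 2 PRC1ctrl libraries. *Stra8* was at 363 and 262 TPM against 174 and 101 TPM. *Tcea3* was at 6.21 and 6.63 TPM against 5.53 and 4.11 TPM. In each of these 3 genes both PRC1cKO libraries stood above both PRC1ctrl libraries. That was also so for *Esx1* and *Crabp1*, and not so for *Tbx1*, *Dmrtb1*, *Cyp26a1* and *Rarb*. These differences were not tested.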

How the results depend on the processing

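Of the gene-level results, 1304 of 1343 values under alternatives other than leaving out a library, and 620 of 684 with a library left out, kept their direction and their side of the threshold. With all libraries kept, the filters, pooled fit, moderation and replicate block leave each difference as it was. There, only the pseudocount and the scaling alternatives could change a direction, so most of that agreement in direction was fixed in advance. With a mean TPM of at least 5, fewer genes were tested: Win PRC1cKO against WT Adiff then gave 1121 higher and 1075 lower, WT Adiff against WT Aundiff 869 lower, Win PRC1cKO against Win PRC1ctrl 104 higher and 851 lower, and Win PRC1ctrl against WT Aundiff 1420 higher and 244 lower. With median-of-ratios scaling, Win PRC1cKO against Win PRC1ctrl gave 373 higher, and Win PRC1ctrl against WT Aundiff (main values 2727 and 527) gave 1672 higher and 917 lower. With quantile normalization these were 587 higher and 879 lower, and 1181 higher and 1098 lower. A pseudocount of 0.1 gave 381 higher for Win PRC1cKO against Win PRC1ctrl. Apart from the tests that a filter removes, the cause was not tested.

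With a library left out, Win PRC1cKO against WT Adiff ranged from 1343 to 2343 higher and from 962 to 1894 lower, WT Adiff against WT Aundiff from 972 to 1734 and from 818 to 1508, Win PRC1cKO against Win PRC1ctrl from 125 to 281 and from 1040 to 2028, and Win PRC1ctrl against WT Aundiff from 5 to 2962 and from 5 to 560, the lowest without Win PRC1ctrl replicate 2. The lone library of a group was then assumed to vary like the other group. With fewer libraries in the fit, a call could be lost while its difference was kept.

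Counts within the gene lists under the same alternatives were added after seeing the data. With quantile normalization 9 replication genes were lower. With a mean TPM of at least 5, the 1 *Hox* gene tested was higher. So were 5 of 10 developmental factors and 5 of 8 immediate-early and heat shock genes. With a library left out, 8 to 13 *Hox* genes were higher. Without Win PRC1cKO replicate 1, the higher calls fell from 4 to 1 among meiotic genes, from 3 to 0 among macrophage and lymphocyte markers, from 2 to 0 among peritubular and endothelial markers and from 5 to 3 in the p53 list. Without replicate 2 they fell from 4 to 2 in the GDNF, FGF and ERK list. Calls of *Kdm6b*, *Hoxc8* and *Spaca1* against WT Adiff were also lost without replicate 1 (adjusted p = 0.0575, 0.0652 and 0.0586, limma), *Mtf2* fell to 0.99 without WT Adiff replicate 2, and *Ccna2* was at -0.97 with quantile normalization.

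Differences near 0 that were not called changed sign. Against Win PRC1ctrl, median-of-ratios scaling and quantile normalization gave 0.18 and 0.0902 for *Ret*, 0.16 and 0.10 for *Lig1*, 0.15 and 0.20 for *Orc1*, 0.18 and 0.23 for *Pcgf2*, and 0.0722 and 0.0736 for *Rybp*. The first gave 0.0311 for *Nanos3*, and the second 0.00421 for *Twist1*. Against WT Adiff they gave 0.10 and 0.12 for *Sycp1*, and the second 0.12 for *Sall4*. With a library left out, differences from WT Adiff ranged from -0.15 to 0.28 for *Rara*, -0.29 to 0.0642 for *Sall4*, -0.18 to 0.18 for *Sycp1*, -0.0210 to 0.0598 for *Dazl* and -0.0158 to 0.17 for *Piwil2*, and those from Win PRC1ctrl from -0.18 to 0.0562 for *Ret*, -0.20 to 0.0448 for *Lig1*, -0.0449 to 0.13 for *Yaf2* and -0.20 to 0.0855 for *Pcgf2*.

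The labels do not say that libraries with the same replicate number share a batch or animal, and with 2 pairs the data cannot settle it. Deviations of same-numbered libraries from their group means correlated at 0.0537 for Win PRC1cKO and WT Adiff, 0.158 for WT Adiff and WT Aundiff, 0.122 for Win PRC1cKO and Win PRC1ctrl, and 0.0746 for Win PRC1ctrl and WT Aundiff. Blocking on that number (replicate block) gave 2190 higher and 1747 lower in Win PRC1cKO than in WT Adiff, 1766 and 1469 in WT Adiff than in WT Aundiff, and 223 and 1854 in Win PRC1cKO than in Win PRC1ctrl.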
